A study of Homo sapiens with 18 samples.

Results

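Transcripts of 6 glycolytic enzymes were measured by RNA sequencing in 22RV1, an established human prostate cancer cell line, after the compound UT-143 or its solvent. The set was defined by 8 Ensembl transcript identifiers, 1 each for GAPDH, LDHA, PGK1 and ENO1 and 2 each for TPI1 and PKM, and all 8 were among the 35246 transcripts listed. The 3 vehicle libraries came from 22RV1 cells given DMSO, and the 3 UT-143 libraries from 22RV1 cells given UT-143 at 10 µM, both for 20 to 24 hours in RPMI with fetal bovine serum. The series title describes covalent inhibitors, selective for cysteine, of androgen receptor splice variants. The labels number the libraries in each group but do not state separate cultures, and the p-values below rest only on the spread among these libraries, which may be technical. All results are from 1 cell line, and without gene names for the other transcripts the cell line was not checked against marker genes.

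Glycolysis splits glucose into pyruvate in the cytosol and yields ATP and NADH. TPI1 interconverts the triose phosphates, GAPDH oxidises glyceraldehyde 3-phosphate, PGK1 makes ATP from the product, ENO1 forms phosphoenolpyruvate, and PKM, the muscle-type pyruvate kinase, makes ATP and pyruvate from it. LDHA then reduces pyruvate to lactate and regenerates NAD+. Proliferating tumour cells often run this pathway at a high rate, and prostate epithelium is known for secreting citrate. GAPDH is also widely used as a reference gene.

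The sequences upstream of PKM, PGK1 and LDHA are shown because PKM had the largest log2 fold changes in the set, PGK1 was the member with a lower mean after UT-143, and LDHA held the most copies of the motif searched. Each run is the 250 bases before a RefSeq transcription start (GRCh38.p14), 5′ to 3′ on the strand of the gene. Capitals mark ACGTG on either strand, 1 form of the core that hypoxia-inducible factors bind. Other forms of that core were not searched, so a count of 0 below covers ACGTG only.
PKM (chr15:72231191-72231440, minus strand): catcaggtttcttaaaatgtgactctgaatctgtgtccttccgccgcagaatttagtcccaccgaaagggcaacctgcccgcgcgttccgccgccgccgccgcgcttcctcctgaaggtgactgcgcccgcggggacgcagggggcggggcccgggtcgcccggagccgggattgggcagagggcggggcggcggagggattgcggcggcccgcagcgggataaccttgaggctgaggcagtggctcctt
PGK1 (chrX:78103998-78104247, plus strand): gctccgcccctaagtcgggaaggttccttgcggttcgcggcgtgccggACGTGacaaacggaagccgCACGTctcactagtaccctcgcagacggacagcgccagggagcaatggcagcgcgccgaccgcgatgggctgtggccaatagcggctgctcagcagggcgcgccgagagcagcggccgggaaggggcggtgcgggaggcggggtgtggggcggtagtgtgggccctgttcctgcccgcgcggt
LDHA (chr11:18394313-18394562, plus strand): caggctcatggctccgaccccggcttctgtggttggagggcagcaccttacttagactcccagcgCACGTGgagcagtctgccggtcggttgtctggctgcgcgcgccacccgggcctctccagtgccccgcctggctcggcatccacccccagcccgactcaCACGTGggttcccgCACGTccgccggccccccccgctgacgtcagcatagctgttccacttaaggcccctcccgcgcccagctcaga
Overlapping matches were counted as 1 place. By this count LDHA held 3 places in the run shown and 0 in that before its other listed start, PGK1 held 2, GAPDH 1 and TPI1 1 (in 1 of its 2 runs), while ENO1 and PKM held 0. The motif was present in 4 of the 8 runs of these 6 genes, and in 18.5% of the 35116 upstream runs of the same length in the RefSeq table. CACGTG, which contains the first motif, was in 2 of the 8 runs and in 6.34% of all runs. AGAACA, a half-site of the element that the androgen receptor binds, was in 0 of the 8 runs and in 12.4% of all runs. GGGCGG, the GC box, was in 7 of the 8 runs and in 42.6% of all runs. Such matches are descriptions of these windows only, and which start each measured transcript used is not given in the sources used here.

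The deposited values are CPM (counts divided by the size of the library) rounded to whole numbers. Summed over all rows they came to between 889253 CPM (vehicle replicate 2) and 923170 CPM (UT-143 replicate 3) per library. UT-143 replicate 3 stood apart. Its log2(CPM + 1) values correlated across transcripts at 0.816 to 0.895 with the other 5 libraries, which correlated with each other at 0.953 to 0.993. Fold changes and counts of members are therefore given with and without it. The number of reads per library is unknown. CPM is not divided by transcript length, so levels are compared between libraries and not between genes.

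The values of both PKM transcripts, which encode the muscle-type pyruvate kinase, were higher in each of the 3 UT-143 libraries than in every vehicle library, and 0.28 to 0.52 above the vehicle mean on the log2 scale. Those of TPI1, GAPDH, PGK1, ENO1 and LDHA lay within 0.14 of the vehicle mean in UT-143 replicates 1 and 2, and farther from it in UT-143 replicate 3. With all 6 libraries, 0 of the 8 transcripts passed an adjusted p of 0.05, and 2 of 8, both of PKM, had an unadjusted p under 0.05 (limma, n = 3 per group). Of all 35246 transcripts, 3.37% passed the adjusted threshold (1.29% higher and 2.08% lower), and 26.4% had an unadjusted p under 0.05. Without UT-143 replicate 3, both PKM transcripts rose and the other 6 did not pass (limma, adjusted p = 0.027 and 0.037 for PKM, 0.28 to 0.59 for the others). In that fit 23.3% of all transcripts passed, 8.65% as higher and 14.6% as lower. The 8 transcripts stand for 6 genes, and the paired rows of TPI1 and of PKM are not separate measurements, though each row is counted here. The median log2 fold change over the 8 transcripts was 0.19 against -0.058 over all transcripts, and without UT-143 replicate 3 it was 0.081 against -0.018. Both member medians lay inside the interquartile range over all transcripts, -0.3301 to 0.1931 and, without UT-143 replicate 3, -0.21 to 0.15. With only transcripts of a mean of at least 20 CPM, which drops LDHA, the medians with 6 libraries were 0.20 and 0.015. After trimmed mean scaling of the 6 libraries the medians were 0.26 and 0.005, and after median-of-ratios scaling 0.26 and 0.0055. After quantile normalization of the 6 libraries they were 0.010 and 0.0041, and without UT-143 replicate 3 as well 0.083 and -0.0026. Among these scalings, the gap was thus nearly absent only after quantile normalization of the 6 libraries.

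**Figure D1:**
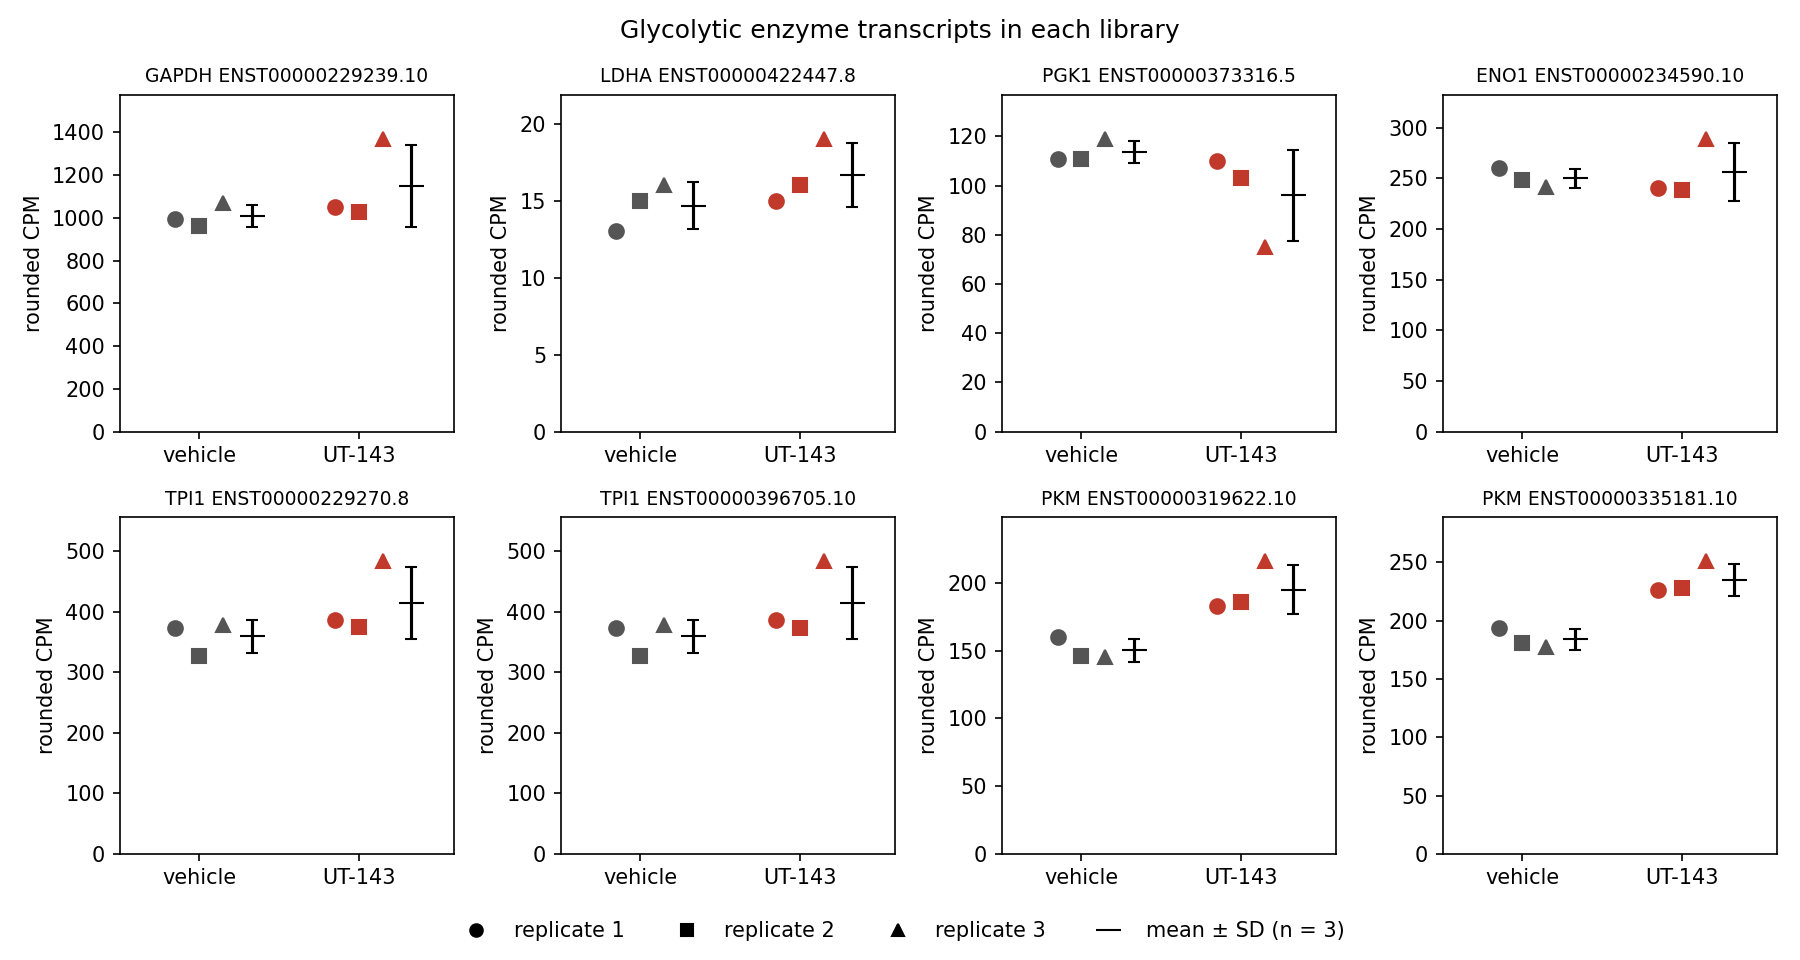
Rounded CPM of the 8 glycolytic enzyme transcripts (vertical axes, each starting at 0) in the 3 vehicle libraries (grey) and 3 UT-143 libraries (red). Marker shape gives the replicate number and the bar gives the mean ± SD (n = 3). The PKM values after UT-143 lie above all vehicle values, as for 13.1% of all transcripts measured. UT-143 replicate 3 is the highest library for every transcript shown except that of PGK1, where it is the lowest at 75 CPM.

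PKM, the last enzyme on the way to pyruvate, is encoded on chromosome 15 (72199029 to 72231591, GRCh38.p14) and was represented by 2 transcripts. ENST00000335181.10 was listed at 194, 181 and 177 CPM in vehicle replicates 1 to 3 and at 226, 228 and 251 CPM in UT-143 replicates 1 to 3. Its mean went from 184 ± 8.9 to 235 ± 13.9 CPM (SD, n = 3 each), a ratio of 1.28. All UT-143 values lay above all vehicle values, as for 13.1% of all transcripts, and UT-143 replicate 3 was the highest. The fitted log2 fold change was 0.35 (standard error 0.093), with a 95% interval of 0.12 to 0.58 (limma, adjusted p = 0.093). Without UT-143 replicate 3 this transcript rose by 0.30 (log2 scale, standard error 0.051, limma, adjusted p = 0.027).

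The other PKM transcript, ENST00000319622.10, was listed at 160, 146 and 145 CPM in the vehicle libraries and at 183, 186 and 216 CPM after UT-143. Its mean went from 150.3 ± 8.4 to 195 ± 18.3 CPM (SD, n = 3 each), a ratio of 1.30. Again the groups did not overlap. Its log2 fold change was 0.37 (standard error 0.11, limma, adjusted p = 0.11), and without UT-143 replicate 3 it rose by 0.30 (standard error 0.057, limma, adjusted p = 0.037). The authors' deposited table gives unadjusted p-values of 0.0092 and 0.035 for ENST00000335181.10 and ENST00000319622.10.

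The ratio of ENST00000335181.10 to ENST00000319622.10 was 1.21, 1.24 and 1.22 in vehicle replicates 1 to 3 and 1.24, 1.23 and 1.16 in UT-143 replicates 1 to 3. On the log2 scale the UT-143 mean minus the vehicle mean was -0.020 (2-sided exact permutation test, p = 0.8, n = 3 per group, smallest possible p = 0.1). Without UT-143 replicate 3 the difference was 0.0075 in the other direction (exact permutation p = 0.5). As p could not fall below 0.1, this test could not have passed 0.05 and cannot decide whether the PKM transcripts shifted. PKM is known for splice forms that carry alternative exons, but how reads shared by its transcripts were counted is not given in the sources used here, so the rows may hold many of the same reads and do not count as separate measurements. The 2 PKM rows correlated at 0.992 over the 6 libraries and at 0.997 without UT-143 replicate 3.

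PKM passed without UT-143 replicate 3 but not in every other form of that fit. Both transcripts passed after trimmed mean and median-of-ratios scaling and with robust moderation, with changes of 0.30 to 0.34 on the log2 scale (limma, adjusted p = 0.011 to 0.017). After quantile normalization they were 0.23 and 0.24 (limma, adjusted p = 0.070 and 0.064). Leaving out vehicle replicate 1 as well kept both past the threshold (limma, adjusted p = 0.014 and 0.017). Leaving out vehicle replicate 2 or 3 as well ended the call, with changes of 0.27 to 0.29 on the log2 scale (limma, adjusted p = 0.059 to 0.12). There 4.09% and 6.9% of all transcripts passed as higher, against 8.65% without UT-143 replicate 3 alone, so calls were lost over the whole table. Leaving out UT-143 replicate 1 or 2 as well left 1 UT-143 library, with PKM changes of 0.28 to 0.31. With UT-143 replicate 3 kept, PKM did not pass under any alternative tried. Quantile normalization of the 6 libraries lowered the change of ENST00000335181.10 from 0.35 to 0.13 (limma, adjusted p = 0.49) and that of ENST00000319622.10 from 0.37 to 0.20 (limma, adjusted p = 0.21). In the fits without UT-143 replicate 3 in which both PKM transcripts passed, 16.2% to 33.8% of all transcripts passed in either direction. As higher, 5.97% to 16.9% passed. The lowest shares were those without vehicle replicate 1 as well.

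**Figure D2:**
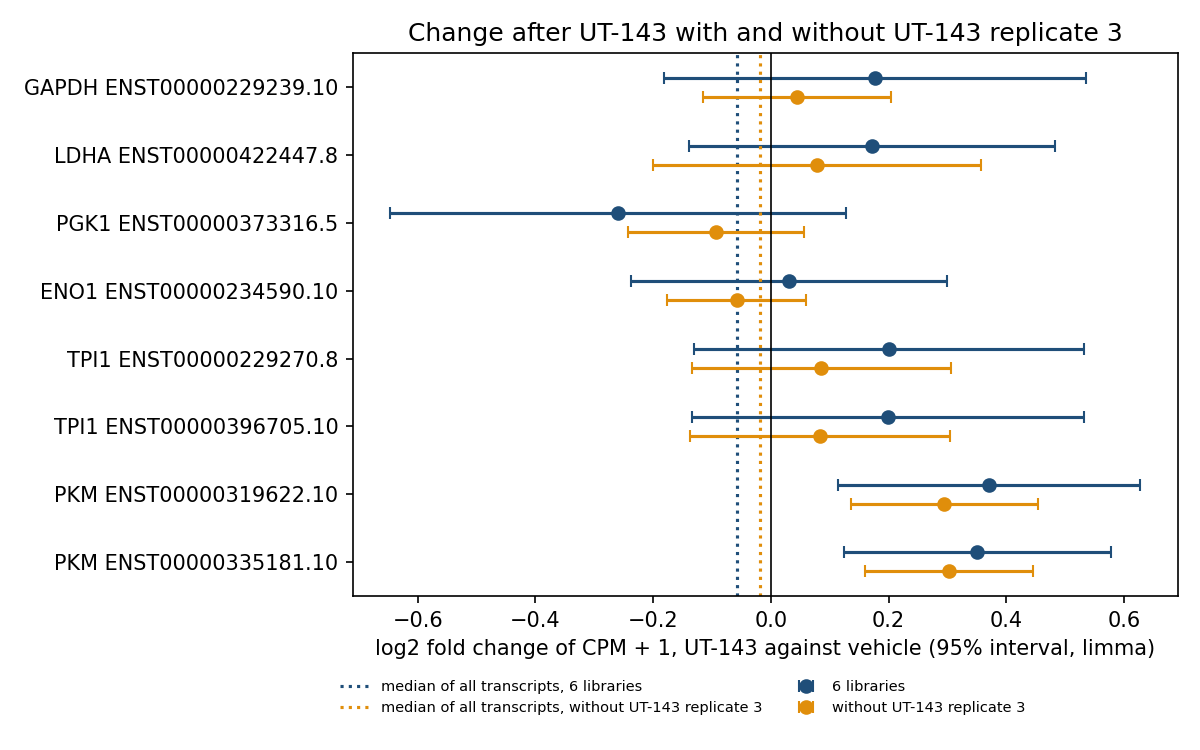
Log2 fold change of CPM + 1 after UT-143 (horizontal axis) for the 8 transcripts (vertical axis), with 95% intervals from limma, for 6 libraries (blue) and without UT-143 replicate 3 (orange). Dotted lines mark the median of all transcripts, -0.058 and -0.018. The intervals of both PKM transcripts lie above 0 in both fits, and those of the other 6 transcripts include 0.

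TPI1, the triose phosphate isomerase (chromosome 12, 6867420 to 6870948), gave nearly the same values for both of its transcripts. ENST00000229270.8 was listed at 373, 328 and 378 CPM in the vehicle libraries and at 387, 375 and 484 CPM in UT-143 replicates 1 to 3. ENST00000396705.10 had the same values in 5 of the 6 libraries and 374 CPM in UT-143 replicate 2. Another transcript outside the set, without a gene name here, equalled ENST00000396705.10 in all 6 libraries. The difference of 1 CPM between the TPI1 transcripts is within what rounding can produce, so the pair was read as 1 measurement. The mean log2 ratio of the pair was 0.0013 higher after UT-143 (2-sided exact permutation test, p = 1, n = 3 per group). With equal values in 5 of the 6 libraries this p was fixed in advance, so the test says nothing about the pair.

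UT-143 replicate 2 lay within the range of the vehicle values for TPI1, UT-143 replicate 1 lay 9 CPM above it, and UT-143 replicate 3 was far above. The mean of ENST00000229270.8 was 359.7 ± 27.5 CPM in vehicle and 415.3 ± 59.8 CPM after UT-143 (SD, n = 3 each). For this transcript the log2 fold change was 0.20 with a 95% interval of -0.13 to 0.53 (limma, adjusted p = 0.36). It was 0.086 without UT-143 replicate 3 (limma, adjusted p = 0.47) and 0.012 after quantile normalization of the 6 libraries (limma, adjusted p = 0.93).

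GAPDH, on the same chromosome (6534517 to 6538371), was listed as ENST00000229239.10 at 995, 963 and 1067 CPM in the vehicle libraries and at 1049, 1029 and 1369 CPM after UT-143. UT-143 replicates 1 and 2 lay within the vehicle range and UT-143 replicate 3 above it. The mean was 1008 ± 53 CPM in vehicle and 1149 ± 191 CPM after UT-143 (SD, n = 3 each). Its log2 fold change was 0.18 with a 95% interval of -0.18 to 0.54 (limma, adjusted p = 0.44), and -0.21 after quantile normalization (limma, adjusted p = 0.12), which reversed its sign. Without UT-143 replicate 3 it was 0.044 with a 95% interval of -0.11 to 0.20 (limma, adjusted p = 0.59). Quantile normalization of those 5 libraries gave -0.28 (limma, adjusted p = 0.035). After trimmed mean and median-of-ratios scaling the change of GAPDH was 0.25 and 0.25 with 6 libraries. Without UT-143 replicate 3 these scalings gave 0.082 and 0.071. Among the scalings tried, only quantile normalization reversed the direction of GAPDH.

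PGK1, the phosphoglycerate kinase encoded on chromosome X (78104248 to 78129295), was the only member of the set with a lower mean after UT-143. ENST00000373316.5 was listed at 111, 111 and 119 CPM in the vehicle libraries and at 110, 103 and 75 CPM in UT-143 replicates 1 to 3. All UT-143 values lay below all vehicle values, as for 22.3% of all transcripts, but UT-143 replicate 1 was only 1 CPM below the lowest vehicle value. The mean was 113.7 ± 4.6 CPM in vehicle and 96.0 ± 18.5 CPM after UT-143 (SD, n = 3 each). The log2 fold change was -0.26 with a 95% interval of -0.65 to 0.13 (limma, adjusted p = 0.32), and without UT-143 replicate 3 it was -0.093 with a 95% interval of -0.24 to 0.056 (limma, adjusted p = 0.28). The sign was negative under trimmed mean, median-of-ratios and quantile scaling, at -0.19, -0.19 and -0.32, and the threshold was not passed.

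ENO1, the enolase encoded on chromosome 1 (8861000 to 8878686), was close to the same level in 5 libraries. ENST00000234590.10 was listed at 260, 248 and 242 CPM in the vehicle libraries and at 241, 239 and 289 CPM in UT-143 replicates 1 to 3. UT-143 replicates 1 and 2 lay just under the vehicle values and UT-143 replicate 3 above them. The log2 fold change was 0.031 with a 95% interval of -0.24 to 0.30 (limma, adjusted p = 0.86), and -0.21 after quantile normalization. Trimmed mean and median-of-ratios scaling of the 6 libraries gave 0.10 and 0.10. Without UT-143 replicate 3 the log2 fold change was -0.058 with a 95% interval of -0.18 to 0.060 (limma, adjusted p = 0.35). The sign of ENO1 thus depended on that library and, among the scalings, on quantile normalization.

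For LDHA, the lactate dehydrogenase subunit encoded on chromosome 11 (18394563 to 18408425), the transcript in the set had CPM values low enough for rounding to matter. It need not stand for the whole gene, as other transcripts of LDHA could not be looked up. Another transcript, without a gene name here, held the same values in all 6 libraries. ENST00000422447.8 was listed at 13, 15 and 16 CPM in the vehicle libraries and at 15, 16 and 19 CPM after UT-143. The ranges overlapped, and UT-143 replicate 3 was highest. A log2 fold change of 0.17 was fitted, with a 95% interval of -0.14 to 0.48 (limma, adjusted p = 0.40), and 0.079 without UT-143 replicate 3 (limma, adjusted p = 0.59). Rounding alone, at up to 0.5 CPM per value, is 3.41% of the vehicle mean of 14.7 CPM, and the ratio of means of 1.14 could lie anywhere between 1.07 and 1.21 for that reason. For the other 7 transcripts rounding is at most 0.44% of the vehicle mean.

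UT-143 replicate 3 was the library farthest from the vehicle mean for each of the 8 transcripts. In that library 7 of the 8 transcripts were above all vehicle values and 1, that of PGK1, was below. Over all transcripts 35.1% were above and 50% below. Its values were 1.36 times the vehicle mean for GAPDH, 1.35 for both TPI1 transcripts, 1.30 for LDHA, 1.16 for ENO1, 1.44 and 1.36 for PKM ENST00000319622.10 and ENST00000335181.10, and 0.66 for PGK1. In UT-143 replicates 1 and 2 together, 2 of the 8 (PKM) were above all vehicle values, 2 (PGK1 and ENO1) below and 4 neither, against 20.7% above and 27% below over all transcripts. With all 3 UT-143 libraries the counts were 2 above and 1 below, against 13.1% and 22.3%. These counts take the paired rows of TPI1 and of PKM separately, though they are not separate measurements. What sets UT-143 replicate 3 apart was not tested.

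**Figure D3:**
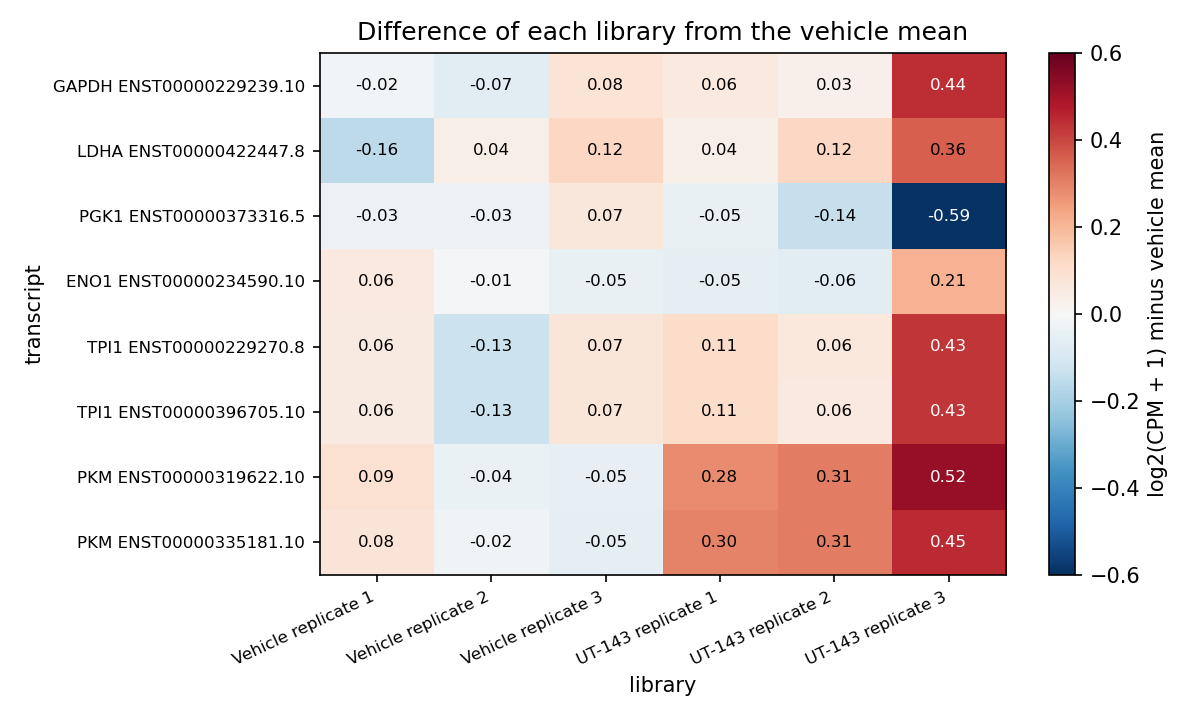
Log2(CPM + 1) of each transcript (rows) in each library (columns) minus the mean of the vehicle libraries, with red above and blue below the vehicle mean. UT-143 replicate 3 ranges from -0.59 for PGK1 to 0.52 for PKM ENST00000319622.10, while in UT-143 replicates 1 and 2 the PKM transcripts are at 0.28 to 0.31 and the other transcripts between -0.14 and 0.12.

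Ratios within a library do not depend on a scaling factor per library, and GAPDH was taken as the denominator after the data were seen. This shows unequal change and not that GAPDH was constant. The ratio of PGK1 to GAPDH was 0.112, 0.115 and 0.111 in the vehicle libraries and 0.105, 0.1001 and 0.0548 in UT-143 replicates 1 to 3. All 3 UT-143 ratios were below all vehicle ratios, the only member of 7 for which the groups did not overlap. Of all transcripts, 30.5% had ratios to GAPDH wholly below vehicle and 7.7% wholly above, so a place below vehicle is common on this scale.

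The ratio of PKM ENST00000335181.10 to GAPDH was 0.195, 0.188 and 0.166 in the vehicle libraries and 0.215, 0.222 and 0.183 after UT-143. UT-143 replicates 1 and 2 lay above all vehicle ratios and UT-143 replicate 3 within their range. The ratios of the other PKM transcript were 0.161, 0.152 and 0.136 in vehicle and 0.175, 0.181 and 0.158 after UT-143. There too UT-143 replicates 1 and 2 lay above all vehicle ratios and UT-143 replicate 3 within their range. Without UT-143 replicate 3, 2 of 7 members, both of PKM, had ratios wholly above vehicle and 1 below, against 19.9% and 33.3% of all transcripts. The ratio of TPI1 ENST00000229270.8 to GAPDH was 0.357 ± 0.017 in vehicle and 0.362 ± 0.008 after UT-143 (SD, n = 3 each). It was between 0.341 and 0.375 in all 6 libraries, UT-143 replicate 3 (0.354) included. The ratio of LDHA to GAPDH was 0.0146 ± 0.0013 and 0.0146 ± 0.0009, and that of ENO1 was 0.249 ± 0.019 and 0.224 ± 0.012 (SD, n = 3 each). The means of UT-143 replicates 1 and 2 alone were 0.367 for TPI1 ENST00000229270.8, 0.0149 for LDHA and 0.231 for ENO1.

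**Figure D4:**
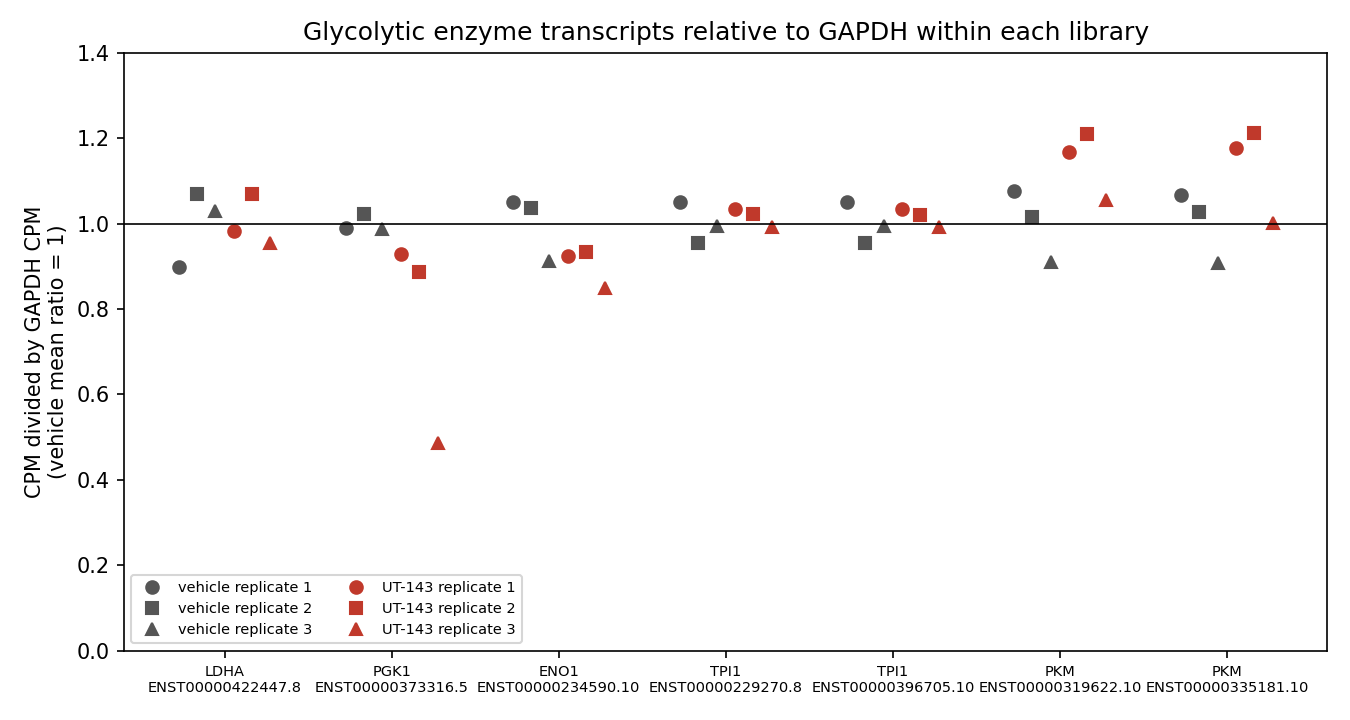
CPM of 7 transcripts divided by the CPM of GAPDH in the same library and set to 1 at the vehicle mean (vertical axis, starting at 0), for vehicle (grey) and UT-143 (red) libraries. PGK1 in UT-143 replicate 3 lies lowest, and both PKM transcripts are highest in UT-143 replicates 1 and 2.

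Over the 6 libraries GAPDH and TPI1 followed each other most closely among different genes of the set, with a Pearson correlation of log2(CPM + 1) of 0.96. Over the other 5 libraries it was 0.84. PGK1 correlated with every other member at -0.77 to -0.90 over the 6 libraries, but this rested on UT-143 replicate 3 for the members other than PKM. Without that library PGK1 correlated at 0.26 with GAPDH, 0.17 with ENO1 and -0.021 with LDHA, and at -0.78 and -0.79 with the PKM transcripts. The correlation of GAPDH with ENO1 turned from 0.79 to -0.61. These are descriptions over 6 or 5 libraries. Among 10900 other transcripts whose mean reached 20 CPM, ENST00000598399.1 and ENST00000495720.5 followed the mean profile of the 8 members most closely, at 0.997 each over the 6 libraries and 0.99 and 0.988 without UT-143 replicate 3. The first was listed at 30, 26, 31, 38, 35 and 61 CPM in vehicle replicates 1 to 3 and UT-143 replicates 1 to 3. Correlations over 0.95 were found for 638 of these transcripts, and the tables used pair neither identifier with a gene.

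Copies of these genes limit what the rows hold. The RefSeq table names 65 pseudogenes after GAPDH, 6 after LDHA, 5 after PKM, 4 each after ENO1 and TPI1 and 2 after PGK1. Reads from such copies and from the genes themselves can be hard to tell apart, and how they were counted is not given in the sources used here. The values of GAPDH in particular are uncertain in this respect.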

How the data were processed

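RNA sequencing of 22RV1 cells was deposited by the authors as 1 table of rounded CPM values, treated here as a normalized score and not as raw counts because every value is whole while the table is named as CPM normalized. Tools listed in the submitters' processing notes are HOMER, FastQC and STAR 2.7.10a, with build hg38. The counting of reads per transcript is not described in the sources used here. The table also holds the authors' deposited ratio of means and unadjusted p-value, which were copied for the members only. No transcript has a mean under 5 CPM over the 6 libraries. Groups came from sample titles and columns from sample descriptions. The 12 ATAC-seq samples were not analysed here.

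The members and lists were chosen with earlier results of these data known. The named transcripts are all 8 members, plus the 2 other transcripts most like them. Gene symbols came with the member identifiers. The name tables used matched 0 of the 35246 identifiers, so a list of further pathway genes could not be looked up. Promoter sequences of all 6 genes came from RefSeq (GRCh38.p14).

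The groups were compared over the whole table with limma 3.58.1 in R 4.3.3 on log2(CPM + 1), so that fold changes of low transcripts are understated, with variances moderated along a trend with the mean, p-values adjusted by Benjamini-Hochberg, and a threshold of 0.05. A filter of 1 CPM in at least 3 libraries removed 0 transcripts. Ratios of transcripts of 1 gene were compared with 2-sided exact permutation tests. The fit was tested on simulated data with means and spread taken from the vehicle libraries and planted changes larger than those of the members. No simulated library stood apart as UT-143 replicate 3 does, so the test does not cover that case. Alternatives were other pseudocounts (0.25 and 4), filters, scalings and moderation, a block for the replicate number, and libraries left out. Figures were drawn with Matplotlib 3.10.9.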

Additional observations from a re-analysis of the deposited data

How the results depend on the processing

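With 6 libraries, 0 members passed as higher and 0 as lower under all settings tried with pseudocounts, filters, scalings, moderation, 1 row per distinct set of values, the replicate block or 1 library left out, except without UT-143 replicate 3, so that leaving out 1 library gave 0 to 2 higher and 0 lower. This follows the whole table, where leaving out any of the other 5 libraries gave 0 of 35246 transcripts and leaving out UT-143 replicate 3 gave 8206. The replicate block gave 0 members (PKM, adjusted p = 0.20 and 0.21 in limma), but also 0 of 35246 transcripts against 1188 without it, so it says nothing about the members. The labels share only a number and do not state whether same-numbered libraries were paired. The deviations of same-numbered libraries correlated across transcripts at -0.41, 0.52 and 0.039. These values cannot show pairing or its absence, because each group was centred on its own mean, which the outlying UT-143 replicate 3 shifts. Further settings for the 5 libraries other than UT-143 replicate 3 were chosen after seeing the data. There, 2 members (PKM) were higher after trimmed mean scaling, median-of-ratios scaling, robust moderation or leaving out vehicle replicate 1, where 16.9%, 15%, 13.7% and 5.97% of all transcripts were higher. After quantile normalization 0 were higher and 1 (GAPDH) was lower, against 10.4% and 14.8% of all transcripts. Leaving out vehicle replicate 2 left 0 higher and 0 lower, against 4.09% and 7.81% of all transcripts. Leaving out vehicle replicate 3 also left 0 and 0, against 6.9% and 11.3%. Where leaving out UT-143 replicate 1 or 2 left 1 UT-143 library, it was assumed to vary like the vehicle libraries.

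Changes of sign were found for GAPDH and ENO1 only, and for the ratio of the PKM transcripts, which was -0.036 to 0.0075 with 1 library left out, the highest without UT-143 replicate 3. The ratio of the TPI1 transcripts was 0 to 0.0019 with 1 library left out. After quantile normalization GAPDH was at -0.21 and ENO1 at -0.21 on the log2 scale, and without UT-143 replicate 3 as well at -0.28 and -0.12. With 1 library left out ENO1 ran from -0.058 (without UT-143 replicate 3) to 0.079. In the fit without UT-143 replicate 3 it was at -0.021 after trimmed mean scaling, -0.031 after median-of-ratios scaling, -0.058 with robust moderation and -0.081 to -0.029 with 1 more library left out (-0.029, -0.064 and -0.081 without vehicle replicate 1, 2 and 3, -0.064 and -0.052 without UT-143 replicate 1 and 2). The cause was not tested. Reads per library are unknown, and rounding limits LDHA most.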
